A study of Drosophila melanogaster with 90 samples.

Results

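The glutathione S-transferases (GSTs) of the fly were followed as 34 genes out of 11982 genes with a probe set that carries 1 gene symbol. A member was any gene whose symbol is Gst followed by the class letter D, E, S, T, O or Z and a number. This rule uses no measured value, but it was chosen with earlier results of these data known. These genes have 36 probe sets, and each gene was read from its brighter one where it has more than 1. Class D (delta) holds 11 of the genes, class E (epsilon) 13, class T (theta) 4, class O (omega) 3, class Z (zeta) 2 and class S (sigma) 1. The gene table lists 35 such genes, and GstE8 was not analysed here.

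GSTs join the tripeptide glutathione to reactive or fat-soluble molecules, and many also reduce lipid peroxides. Insects are known for their large delta and epsilon classes, which act on plant toxins, insecticides and products of oxidative damage and are often induced by them through the Cap n collar and Keap1 regulators. Some members have fixed jobs in metabolism: GstE14 (Noppera-bo) is needed for ecdysteroid synthesis, zeta class enzymes take part in tyrosine breakdown, and omega class enzymes include one that makes a precursor of the red eye pigments.

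All 90 arrays (Affymetrix Drosophila Genome 2) hold RNA of late pupae of the wild-type strain Oregon R, taken just before eclosion, in 32 groups of 2 to 4 arrays. In the random positioning machine (RPM, 20 arrays), pupae turned at random to simulate weightlessness (0g) were set against 1g pupae outside the machine. In the bore of a strong magnet (30 arrays), pupae at the levitation point (0g*), at the field centre (1g*) and below it (2g*) were set against pupae outside the field (1g). In the Large Diameter Centrifuge (LDC, 40 arrays), 12g, 6g and a rotating control (1g-rot) were set against resting 1g pupae. Pupae were kept in open containers at constant temperature (no constraint), had a cold step before exposure, were sealed in a closed container with limited oxygen (hypoxia), or had both. In the RPM no group was closed without the cold step, and in the magnet every group inside the field was closed. Each array is a pool of pupae and the replicates are biological according to the study's methods, but the sex of the pupae is not given in the sources used here. Nor do those sources say whether cold-step and constant-temperature groups were run at the same time. In whole pupae, fewer cells of a type and less RNA per cell cannot be told apart.

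Values are log2 intensities, so a difference of 1 is a doubling. Array medians were 5.03 to 5.15 in the RPM, 4.99 to 5.11 in the magnet and 6.37 to 6.53 in the LDC, and levels were therefore compared only within a facility. Arrays of a group correlated at 0.952 to 0.996. The flight muscle genes Act88F, fln and TpnC4 were bright on every array (11.79 to 15.14), as in pharate adults. They do not show whether groups differed in stage within that period, which was not tested. The yolk protein gene Yp2 of females ranged from 3.60 to 6.74 in the RPM, 3.54 to 4.55 in the magnet and 5.43 to 13.42 in the LDC. In the LDC the study ran a first experiment (19 arrays) and a parallel second one (21 arrays). Open 12g arrays were all of the first and open 6g arrays all of the second, whereas the open 1g and 1g-rot groups had 1 array of the first and the rest of the second. Of the closed groups, 12g and 6g were all of the second and 1g and 1g-rot all of the first, so in closed containers 12g or 6g and the experiment cannot be told apart when set against 1g. Only the open 1g and 1g-rot groups hold arrays of both experiments. A term for the experiment is therefore estimated from these groups, and its use elsewhere assumes the same shift there. A gene was called at an adjusted p under 0.05 in limma, with Benjamini-Hochberg correction over 18769 probe sets within a comparison. The arrays' number limits the precision of every value.

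Against 1g, none of the 34 genes was called in the RPM or the magnet, and 16 were called in at least 1 of the 12 LDC comparisons. Both numbers rest on few arrays per group. The share of all probe sets called in at least 1 of the 12 was not counted. Single LDC comparisons with 1g called 0% to 17.5% of all probe sets.

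**Figure D1:**
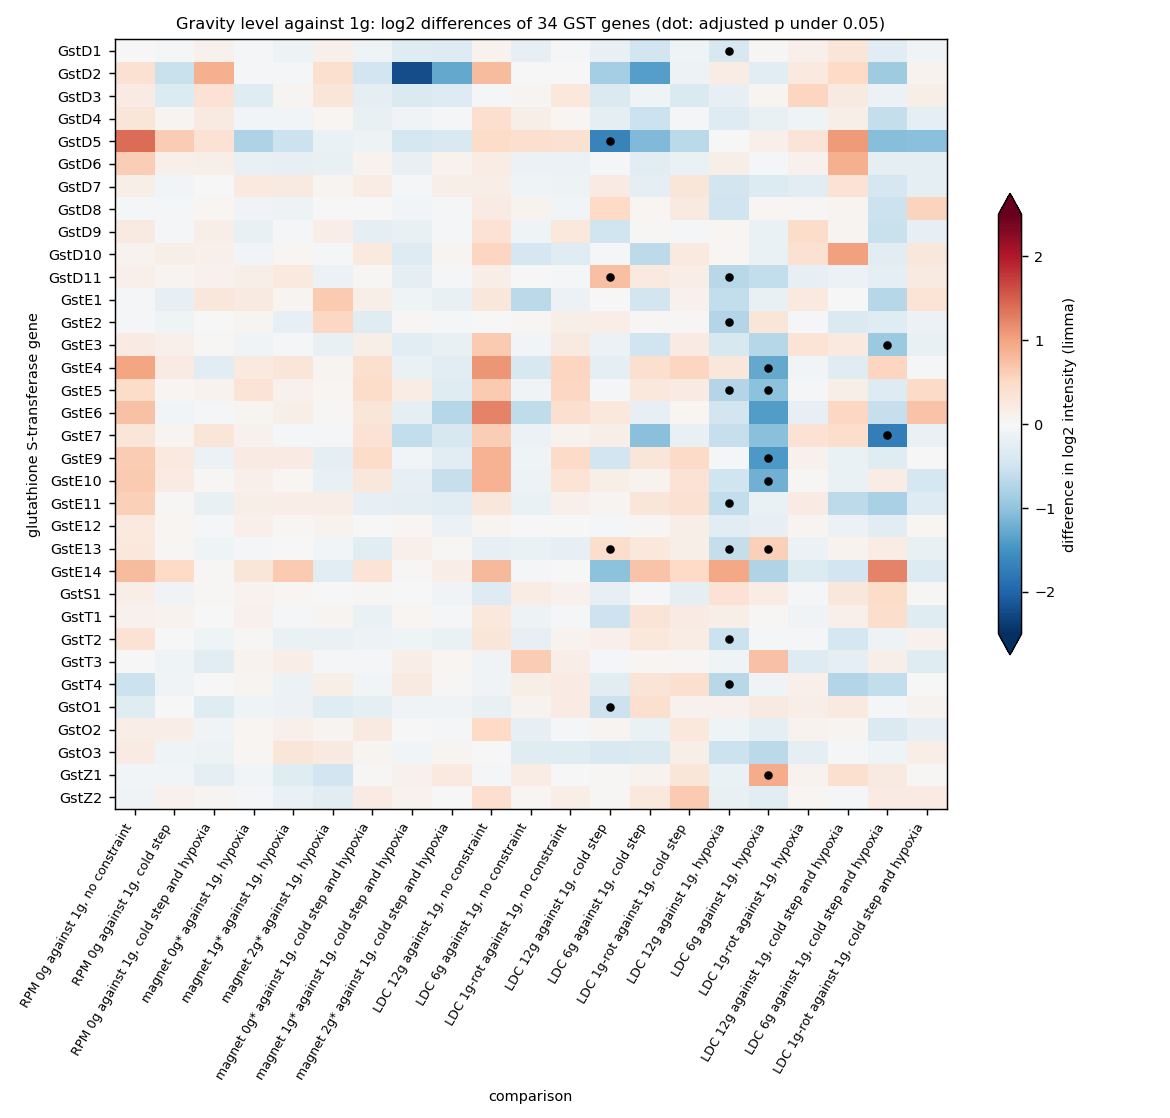
Difference in log2 intensity from 1g (colour, limma) for each of the 34 GST genes (rows) in the 21 gravity comparisons (columns); a black dot marks an adjusted p under 0.05. Dots are found only in the columns of the LDC at 12g and 6g, where 8 genes are marked for 12g in hypoxia and 6 for 6g in hypoxia.

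On the RPM without constraint, 0 of 34 genes were called and 12 had an unadjusted p under 0.05, 10 of them higher at 0g. Of all probe sets 0.00533% were called there, and 0% after the cold step and 0% with cold step and hypoxia, where 0 GST genes were called and 1 each had an unadjusted p under 0.05. The smallest p belonged to the steroid hormone gene GstE14. Its values were 4.40, 4.19 and 4.08 at 0g against 3.54, 3.37 and 3.36 at 1g, a difference of 0.80 ± 0.14 (SE) with an adjusted p of 0.0534 (limma). The groups did not overlap, but all 6 values lie below the array medians. GstE4, an epsilon enzyme, read 6.38, 6.71 and 6.43 at 0g and 5.44, 5.30 and 5.83 at 1g, a difference of 0.98 ± 0.25 (adjusted p = 0.143, limma), again without overlap. The median difference was 0.20 over the 34 genes and 0.00 over all probe sets. Without the third 1g array, 2 GST genes were called.

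In the magnet, none of the 6 comparisons against 1g gave a GST call. The number of genes with an unadjusted p under 0.05 was 1 at 0g*, 1 at 1g* and 3 at 2g* in hypoxia, and 4, 3 and 5 with cold step and hypoxia. In the same order, 0%, 0.0107%, 0.416%, 0.501%, 0.0426% and 0.101% of all probe sets were called. GstE1 at 2g* in hypoxia read 9.41, 9.57 and 9.64 against 9.03, 8.75 and 8.87 at 1g (difference 0.66 ± 0.16, adjusted p = 0.074, limma), with every 2g* array above every 1g array. GstD2 after cold step and hypoxia was 2.21 lower at 1g* on the log2 scale (4.89 against 7.10, SE 0.47), with an adjusted p of 0.0861 (limma). Neither passed the threshold.

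Between positions inside the field, where container and temperature were alike, epsilon genes were called. Field strength was alike only at 0g* and 2g*, and the field was stronger at 1g*. In comparisons with 1g*, effective gravity and field strength therefore cannot be told apart. At 0g* against 2g* after cold step and hypoxia, 4 of 34 genes were higher and none lower (11.8% of the genes, against 3.85% of all probe sets). GstE9, an epsilon enzyme at one end of a run of GstE neighbours, read 10.16, 10.07 and 10.13 at 0g* and 9.37, 9.42 and 9.36 at 2g*, a difference of 0.74 ± 0.12 (adjusted p = 0.000364, limma). The 0g* arrays also lie above the 3 arrays at 1g* (9.76, 9.62 and 9.39) and the 3 at 1g (9.61, 9.57 and 9.81). GstE10, at the other end of the run, read 6.53, 6.43 and 6.36 at 0g* and 5.75, 5.54 and 5.42 at 2g*, a difference of 0.87 ± 0.19 (adjusted p = 0.00482, limma). GstE6 (1.02 ± 0.18) and GstE5 (0.75 ± 0.17) were called as well. The groups did not overlap for any of these genes.

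The 0g* pupae of that experiment had 3 calls against 1g* too, all higher at 0g*: GstD2 (1.74 ± 0.47), GstE7 (0.97 ± 0.26) and GstE9 (0.53 ± 0.12), with 2.49% of all probe sets called. Leaving out 1 array gave 0 to 2 calls there. The 2 comparisons share the 0g* arrays, and only the one with 2g* was made at equal field strength. Of 15 accessory gland genes, which mark the male reproductive tract, 4 were called higher in each comparison, and the mean of the list was 5.20 to 5.84 per array at 0g*, 4.33 to 4.38 at 1g* and 4.32 to 4.83 at 2g*. Their part in the result was not tested. Of 20 cytochrome P450 genes linked to detoxification, 4 rose against 1g* and 3 against 2g*, none fell.

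In hypoxia at constant temperature, 2g* against 1g* gave 3 calls (3.36% of all probe sets). Here too the field was stronger at 1g*, and its part was not tested. GstE1 read 9.41, 9.57 and 9.64 at 2g* and 8.79, 9.13 and 8.92 at 1g* (0.59 ± 0.16, adjusted p = 0.0446, limma). GstE9 read 9.75, 9.85 and 10.20 against 10.37, 10.52 and 10.22, and fell by 0.44 on the log2 scale (SE 0.12). GstE14 fell by 0.92 (SE 0.20, adjusted p = 0.00781, limma), from 4.43, 4.73 and 4.22 at 1g* to 3.56, 3.34 and 3.73 at 2g*. None of these groups overlapped, but without 1 array or another 0 to 2 genes were called, and 12 of the 15 accessory gland genes were lower and 1 higher at 2g* (mean per array 5.51 to 6.36 against 7.51 to 8.51). The remaining position comparisons, 0g* against 1g* and 0g* against 2g* in hypoxia and 2g* against 1g* after cold step and hypoxia, gave 0 calls, with 0, 5 and 3 genes at an unadjusted p under 0.05. In these, 0.0213%, 0.352% and 0% of all probe sets were called.

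In the centrifuge at constant temperature in open containers, none of the 34 genes was called at 12g, 6g or 1g-rot against 1g, where 0.149%, 0% and 0.0160% of all probe sets were called and 8, 2 and 2 GST genes had an unadjusted p under 0.05. All 8 at 12g were higher. For GstE10 the 12g values were 8.11 and 8.52 against 7.71, 6.92 and 7.73 at 1g (0.86 ± 0.25, adjusted p = 0.123, limma). The median difference at 12g was 0.28 over the GST genes and 0.05 over all probe sets. Without the first 1g array, the one of the first experiment, 6 genes were called, and without the first 12g array 1 was. GstE9 on the open arrays of the first experiment read 10.87 at 1g, 11.53 at 1g-rot and 11.07 and 11.37 at 12g. Those of the second read 9.90 and 10.31 at 1g, 10.51 and 10.44 at 1g-rot and up to 10.53 at 6g, all below the first.

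After the cold step in open containers, 4 genes were called at 12g against 1g (10.8% of all probe sets), 2 in each direction. GstE13 read 10.27, 10.23 and 10.27 at 12g and 9.65, 10.08 and 9.76 at 1g, a difference of 0.43 ± 0.12 (adjusted p = 0.0282, limma). GstD11 was also higher (0.75 ± 0.16), while GstO1 fell by 0.53 (SE 0.16). The delta enzyme GstD5 read 5.48, 6.11 and 6.16 at 12g and 7.54, 9.10 and 6.13 at 1g and fell by 1.67 (SE 0.52, adjusted p = 0.0384, limma), but its groups overlapped. Without the first or the second 12g array 1 gene was called, and without the second 1g array 2 were. In the same comparison 12 of 15 accessory gland genes were lower and 1 higher at 12g (mean per array 6.35 to 6.91 against 9.10 to 9.66). Their part was not tested. At 6g and 1g-rot after the cold step 0 genes were called (6 and 3 with an unadjusted p under 0.05), where 0.213% and 0.0533% of all probe sets were called.

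In hypoxia, 12g pupae had 8 GST genes lower than 1g and none higher, which is 23.5% of the genes beside 17.5% of all probe sets. The median was -0.31 over GST genes and -0.09 over all probe sets. GstE13 read 9.79, 9.85 and 9.96 at 12g and 10.61, 10.38 and 10.40 at 1g, and fell by 0.60 on the log2 scale (SE 0.12, adjusted p = 0.0021, limma). GstD1, which is known to break down DDT, read 12.75, 12.37 and 12.60 against 12.92, 12.93 and 13.07 and fell by 0.40 (SE 0.13, adjusted p = 0.0389, limma). GstE2 fell by 0.73 (SE 0.18), from 8.34, 7.88 and 8.47 to 7.33, 7.50 and 7.66. Among the others, GstE5 (-0.73 ± 0.24), GstD11 (-0.70 ± 0.16) and GstE11 (-0.61 ± 0.21) did not overlap between groups, and the theta genes GstT4 (-0.69 ± 0.19) and GstT2 (-0.54 ± 0.14) did. For GstT4 the third 12g array (11.10) stood at the level of the 1g arrays, well above the second (10.38).

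Other genes of glutathione chemistry moved in both directions in that comparison. Gclc, the catalytic subunit of glutathione synthesis, was 1.16 ± 0.17 higher at 12g, the exporter MRP 1.21 ± 0.22 and the regulator Keap1 0.82 ± 0.18. The microsomal enzyme Mgstl (-0.93 ± 0.27), the omega class gene sepia (se, -1.05 ± 0.20) and the thiol reductase gene GILT1 (-0.74 ± 0.22) were lower. Of 22 glutathione and redox genes measured, 1 rose and 4 fell, and 6 of 20 P450 genes rose and 1 fell. All 12g arrays here were of the second experiment and all 1g arrays of the first. With a term for the experiment, estimated from open groups only, 3 GST genes were called. In the fit without that term, leaving out 1 array or another gave 3 to 6 (3 without the second 12g or the first 1g array). Of the accessory gland genes 9 were higher and 1 lower at 12g (mean per array 8.16 to 9.64 against 6.77 to 7.46), which was not separated from the GST values.

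At 6g in hypoxia, 4 genes were lower and 2 higher than at 1g (4.42% of all probe sets). GstE9 read 9.86 and 10.12 at 6g and 11.45, 11.38 and 11.43 at 1g, and fell by 1.43 (SE 0.25, adjusted p = 0.00105, limma). GstE10 fell by 1.21 (SE 0.25), GstE4 by 1.28 (SE 0.34) and GstE5 by 1.02 (SE 0.27), so that the 4 lower genes all belong to the run of GstE neighbours. GstZ1, a zeta enzyme of tyrosine breakdown, rose by 0.93 ± 0.21 and GstE13 by 0.59 ± 0.14. No groups overlapped. The accessory gland list had 0 genes higher and 1 lower, and the P450 list 0 higher and 4 lower, Cyp6g1 (-2.05 ± 0.25) and Cyp6a20 (-1.98 ± 0.46) among them. Here too gravity and the experiment cannot be told apart. With a term for the experiment, estimated from open 1g and 1g-rot groups only, 0 GST genes were called. That count does not separate them. Without the first 6g array 1 gene was called, and without the second 6g or the second 1g array 2 were. No gene was called at 1g-rot in hypoxia (0 at an unadjusted p under 0.05; 0% of all probe sets).

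The title of the first 12g array with cold step and hypoxia leaves out its environment, which was taken from its other labels. In that environment GstE7 (-1.72 ± 0.48) and GstE3 (-0.93 ± 0.28) were lower at 6g than at 1g (6.40% of all probe sets), and no gene was called at 12g or 1g-rot (0.421% and 0.00533% of all probe sets; 5 and 1 GST genes with an unadjusted p under 0.05). A dimmer second probe set of GstE9, not the one read here, was higher at 12g (1.04, adjusted p = 0.000139, limma). The one read differed by -0.17. Without either 1g array or the first 6g array 0 genes were called at 6g, and without the second 6g array 1 was. With a term for the experiment, again estimated from open groups only, 0 were called. Of the accessory gland genes 13 were higher at 6g (9.36 to 10.50 against 5.89 to 5.98 per array).

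Closed 12g and 6g arrays are all of the second experiment, so that limit does not apply between them. Whether they were run at the same time within it is not given in the sources used here. In hypoxia 8 GST genes differed between 12g and 6g, 3 higher and 5 lower at 12g (12.5% of all probe sets). GstE9 read 11.44, 11.36 and 11.41 at 12g and 9.86 and 10.12 at 6g, a difference of 1.41 ± 0.25 (adjusted p = 0.000187, limma). GstE4 read 8.02, 7.92 and 8.49 against 6.55 and 6.59 (1.57 ± 0.34), and GstE14 6.12, 6.34 and 7.12 against 4.87 and 4.75 (1.72 ± 0.40, adjusted p = 0.00353, limma). GstE13 went the other way, with 9.79, 9.85 and 9.96 against 11.12 and 10.98 (-1.18 ± 0.14, adjusted p = 9.44e-07, limma). The 4 genes were fully separated between the groups. GstZ1 (-1.09 ± 0.21), GstE2 (-1.03 ± 0.20), GstT3 (-0.85 ± 0.27) and GstT2 (-0.49 ± 0.16, overlapping) were lower too. Without the second 6g array 4 genes were called. In the same arrays 10 of 20 P450 genes rose and 1 fell, with Cyp6a20 at 4.16 ± 0.46, and Gclc rose by 1.47 ± 0.19. The accessory gland list had 12 genes higher and 1 lower at 12g (8.16 to 9.64 against 5.70 to 5.79 per array) and 2 of 3 yolk protein genes were higher. The part of these tissues was not tested.

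With cold step and hypoxia, 12g and 6g differed for delta genes. Of the 34 genes 8 were higher and 1 lower at 12g, 26.5% beside 7.71% of all probe sets. GstD10 to GstD8 are 10 genes side by side in the RefSeq gene table, all 10 measured. Each had a difference above 0, 6 were called, and their median was 0.77 beside 0.03 over all probe sets. GstD10 read 7.06 and 7.49 at 12g and 5.87 and 6.05 at 6g (1.31 ± 0.29, adjusted p = 0.00614, limma). GstD5 read 8.42 and 7.94 against 5.93 and 6.18 (2.12 ± 0.63, adjusted p = 0.0367, limma), and GstD1 13.30 and 13.57 against 12.67 and 13.03 (0.59 ± 0.16). These pairs of arrays did not overlap. GstD6, GstD7 and GstD4 were higher by 1.13 ± 0.30, 0.79 ± 0.23 and 0.74 ± 0.22, GstE7 by 2.16 ± 0.48 and GstE3 by 1.18 ± 0.28. GstE14 was lower, with 5.66 and 5.38 at 12g and 7.60 and 6.88 at 6g (-1.72 ± 0.44). At 6g the values of GstD10, GstD5, GstD6, GstD7 and GstD4 lay below the array medians. So did both 12g values of GstD4 (5.71) and the first 12g values of GstD6 (5.40) and GstD7 (5.89). How far probe sets of such close neighbours take up each other's RNA was not tested.

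**Figure D2:**
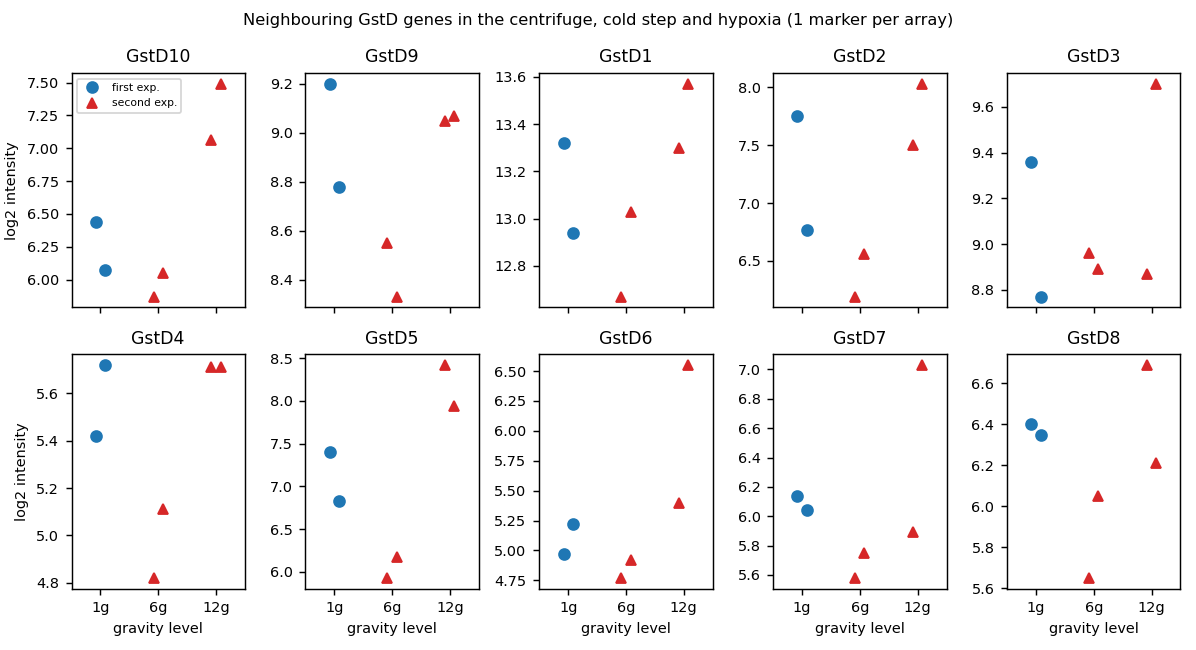
Log2 intensity of the 10 neighbouring GstD genes (panels) on each LDC array with cold step and hypoxia at 1g, 6g and 12g; circles are arrays of the first experiment and triangles of the second. For GstD10 and GstD5 both 12g arrays lie above both 6g arrays and both 1g arrays, while GstD3 overlaps between 12g and 6g.

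With 2 arrays in each group this result turned on single arrays: 5, 2, 0 and 5 GST genes were called without the first 12g array (the one with the incomplete title), the second 12g array, the first 6g array or the second. In a fit of these 4 arrays alone 0 were called. Of the accessory gland genes 0 were higher and 11 lower at 12g (6.21 to 7.18 against 9.36 to 10.50 per array), and all 3 larval storage protein genes of the fat body were higher, their median at 2.90. Their part was not tested. Gclc was lower (-1.14 ± 0.21), and GILT1 (1.33 ± 0.27) and catalase (Cat, 0.52 ± 0.15) were higher.

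In open containers 12g and 6g came from different experiments. Without constraint 7 genes were higher at 12g and none lower (13.2% of all probe sets): GstE6, GstE4, GstE10, GstD10, GstE1, GstE9 and GstO2, by 0.71 to 1.87. Without the second 12g or either 6g array 0 were called, and with a term for the experiment 0 were. After the cold step 7 genes were called, 2 higher and 5 lower, which is 20.6% of the genes and less than the 43.0% of all probe sets called. GstO1 (-0.93 ± 0.18) had the smallest p among them, and GstE14 read 6.57, 5.77 and 5.99 at 12g and 8.16 and 7.52 at 6g (-1.73 ± 0.40). The balance of directions turned with the scaling: 8 were higher and 4 lower with median centring, and 7 and 2 with quantile normalization. Without the third 12g array 5 genes were called, without the first or second 4, and without either 6g array 2.

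Whether the effect of gravity itself differed between environments was tested as a difference of differences. For the RPM and the 3 magnet positions 0 genes were called (7, 0, 2 and 5 with an unadjusted p under 0.05; 0%, 0%, 0.0160% and 0% of all probe sets). For 12g, GstE9 differed after the cold step (-1.34 ± 0.33; 3.35% of all probe sets). It was not called with only the groups compared, with arrays of the first experiment alone (-0.53), with quantile normalization, with the mean over its probe sets, or without any 1 of 5 arrays: the second 1g, the third 1g and the second 12g array without constraint, and the third 1g and the second 12g array after the cold step. Another 7 genes differed in hypoxia from no constraint (14.5% of all probe sets), 6 of them downwards, GstE5 (-1.38 ± 0.37) and GstE10 (-1.36 ± 0.33) the farthest. The hypoxia comparison spans both experiments: with a term for the experiment 1 gene was called, and leaving out 1 array gave 0 to 12. With both constraints at 12g and in the 3 comparisons at 6g 0 genes were called (8, 3, 6 and 5 with an unadjusted p under 0.05; 3.78%, 0%, 0.176% and 0.868% of all probe sets).

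For the cold step, 24 of the 34 genes were called in at least 1 of 15 comparisons. The share of all probe sets called in at least 1 of them was not counted. Single cold step comparisons called 0.597% to 23.9% of all probe sets. The direction of a gene was not always the same in the 3 facilities.

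**Figure D3:**
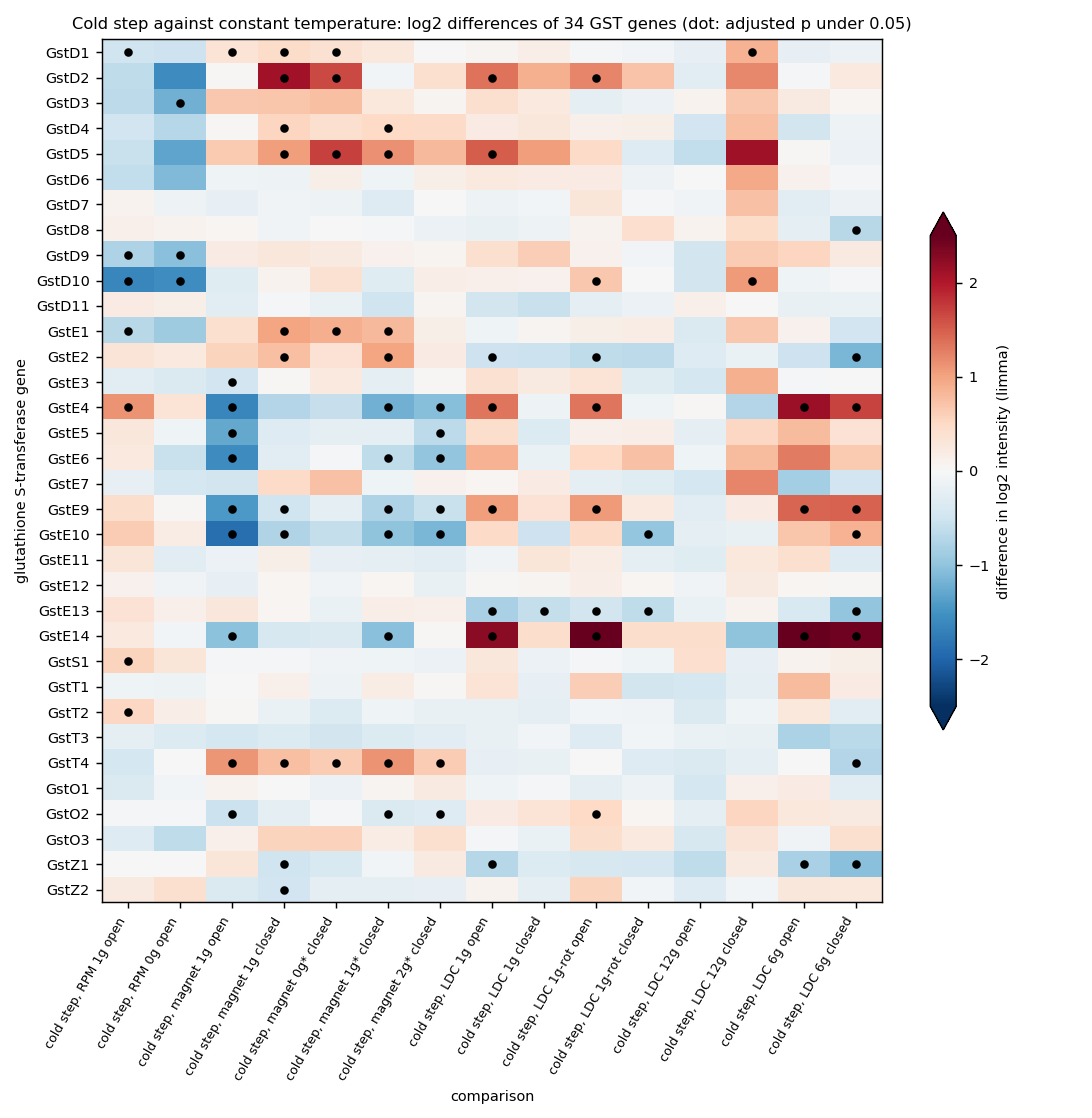
Difference in log2 intensity between cold step and constant temperature (colour, limma) for the 34 GST genes (rows) in 15 groups (columns); a black dot marks an adjusted p under 0.05. In the magnet GstE4, GstE9 and GstE10 are lower after the cold step (-1.63, -1.44 and -1.89 at 1g open), and in the open LDC groups at 1g, 1g-rot and 6g GstE4, GstE9 and GstE14 are higher.

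In open 1g pupae of the magnet, 8 genes were lower after the cold step and 2 higher (29.4% of the genes, 21.8% of all probe sets). GstE10 read 5.56, 5.18 and 5.20 after the cold step and 7.39, 6.98 and 7.24 at constant temperature, a difference of -1.89 ± 0.19 (adjusted p = 2.39e-08, limma). GstE9 read 8.79, 9.04 and 8.77 against 10.17, 10.34 and 10.42 (-1.44 ± 0.12, adjusted p = 1.89e-09, limma). GstE4 read 4.94, 4.70 and 4.82 against 5.91, 6.45 and 6.99 (-1.63 ± 0.27). These 3 genes lie in 1 run of 10 neighbours, GstE10 to GstE9, of which 9 were measured. Of the 9, 6 fell, with GstE6 (-1.58 ± 0.18), GstE5 (-1.27 ± 0.17) and GstE3 (-0.47 ± 0.15, overlapping) as the others. The median over the 9 was -1.27, beside -0.05 over all probe sets. GstE1 and GstE2 of the same run were above 0 and were not called.

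Outside the run, GstE14 read 3.22, 3.49 and 3.39 against 4.11, 4.37 and 4.72 (-1.03 ± 0.20), all below the array medians. The theta gene GstT4 rose, with 9.82, 9.70 and 9.84 against 8.47, 8.71 and 8.86 (1.11 ± 0.15, adjusted p = 4.25e-06, limma), and GstD1 read 12.20, 12.18 and 12.07 against 11.76, 11.85 and 11.78 (0.35 ± 0.11). GstO2 was lower by 0.54 on the log2 scale. Leaving out 1 array in turn gave 9 to 13 calls.

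Enzymes of the other detoxification steps fell in the same arrays. Of 20 P450 genes 0 rose and 11 fell, among them Cyp6g1 (-2.68 ± 0.19) and Cyp6a20 (-2.72 ± 0.29), and of 35 UDP-glycosyltransferase genes, which attach sugars, 4 rose and 13 fell. Of the 22 redox genes 3 rose and 4 fell. Of 15 accessory gland genes 14 fell and 1 rose (mean per array 4.26 to 4.51 against 6.54 to 8.15), and of 21 midgut genes 0 rose and 5 fell. The part of these tissues in the GST values was not tested.

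The closed magnet groups repeated only some of this. At 1g 7 genes rose and 4 fell (32.4% of the genes, 16.9% of all probe sets). GstE9 read 9.61, 9.57 and 9.81 after the cold step against 10.24, 10.04 and 10.19 (-0.49 ± 0.12) and GstE10 5.70, 6.07 and 6.69 against 7.07, 6.82 and 6.82 (-0.75 ± 0.19), while GstZ1 (-0.49 ± 0.15) and GstZ2 (-0.48 ± 0.16) were the other lower genes. Delta genes rose: GstD2 by 2.10 ± 0.47, GstD5 by 1.05 ± 0.30 (5.45, 5.82 and 5.19 against 4.67, 4.18 and 4.47), GstD4 by 0.53 ± 0.17 and GstD1 by 0.46 ± 0.11. GstE1 rose by 0.98 ± 0.16 (9.65, 9.76 and 10.19 against 9.03, 8.75 and 8.87) and GstE2 and GstT4 by 0.75 each. The groups did not overlap. Without the first or second cold-step array, or the second array of the other group, 6 were called. Accessory gland genes were again lower (14 of 15, 1 higher; 4.72 to 5.35 against 7.33 to 7.55 per array).

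Inside the field GstT4 rose after the cold step at all 3 positions, by 0.64 ± 0.15 at 0g*, 1.13 ± 0.15 at 1g* and 0.64 ± 0.15 at 2g*. At 0g* 5 genes were higher and none lower (5.94% of all probe sets), GstD5 by 1.70 ± 0.30, GstD2 by 1.65 ± 0.47, GstE1 by 0.90 ± 0.16 and, with overlap, GstD1 by 0.39 ± 0.11. For GstE9 the 0g* values were 10.16, 10.07 and 10.13 after the cold step and 10.36 on all 3 arrays before it, and this gene was not called there. At 1g* 5 genes were higher and 6 lower (23.9% of all probe sets) and at 2g* 1 higher and 6 lower (8.36%). GstE4, GstE6, GstE9 and GstE10 were among the lower ones at both, by 0.55 to 1.20 on the log2 scale. Leaving out 1 array gave 3 to 6 calls at 0g* and 4 to 7 at 2g*. The accessory gland list had 8, 14 and 6 genes lower at 0g*, 1g* and 2g*, and 1 higher at each.

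Open and closed containers could be compared at 1g. In the magnet after the cold step 7 of the 34 genes were higher in the closed container and none lower, 20.6% beside 1.58% of all probe sets. All 9 measured genes of the run from GstE10 to GstE9 were above 0, with a median of 0.70 beside -0.03 over all probe sets, and 6 of them were called. GstE9 read 9.61, 9.57 and 9.81 closed and 8.79, 9.04 and 8.77 open, a difference of 0.80 ± 0.12 (adjusted p = 0.000357, limma). GstE10 read 5.70, 6.07 and 6.69 against 5.56, 5.18 and 5.20 (0.84 ± 0.19, adjusted p = 0.0148, limma), and GstE5 5.77, 6.01 and 6.17 against 5.34, 5.38 and 5.14 (0.70 ± 0.17). For GstE6 the closed mean was 8.52 ± 0.18 (SD, n = 3) and the open mean 7.23 ± 0.22 (1.29 ± 0.18, adjusted p = 0.000141, limma). GstE7 (1.05 ± 0.26) and GstE3 (0.60 ± 0.15) were called too, and outside the run GstD2 (2.20 ± 0.47). No closed array overlapped with an open one for any of the 7 genes.

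**Figure D4:**
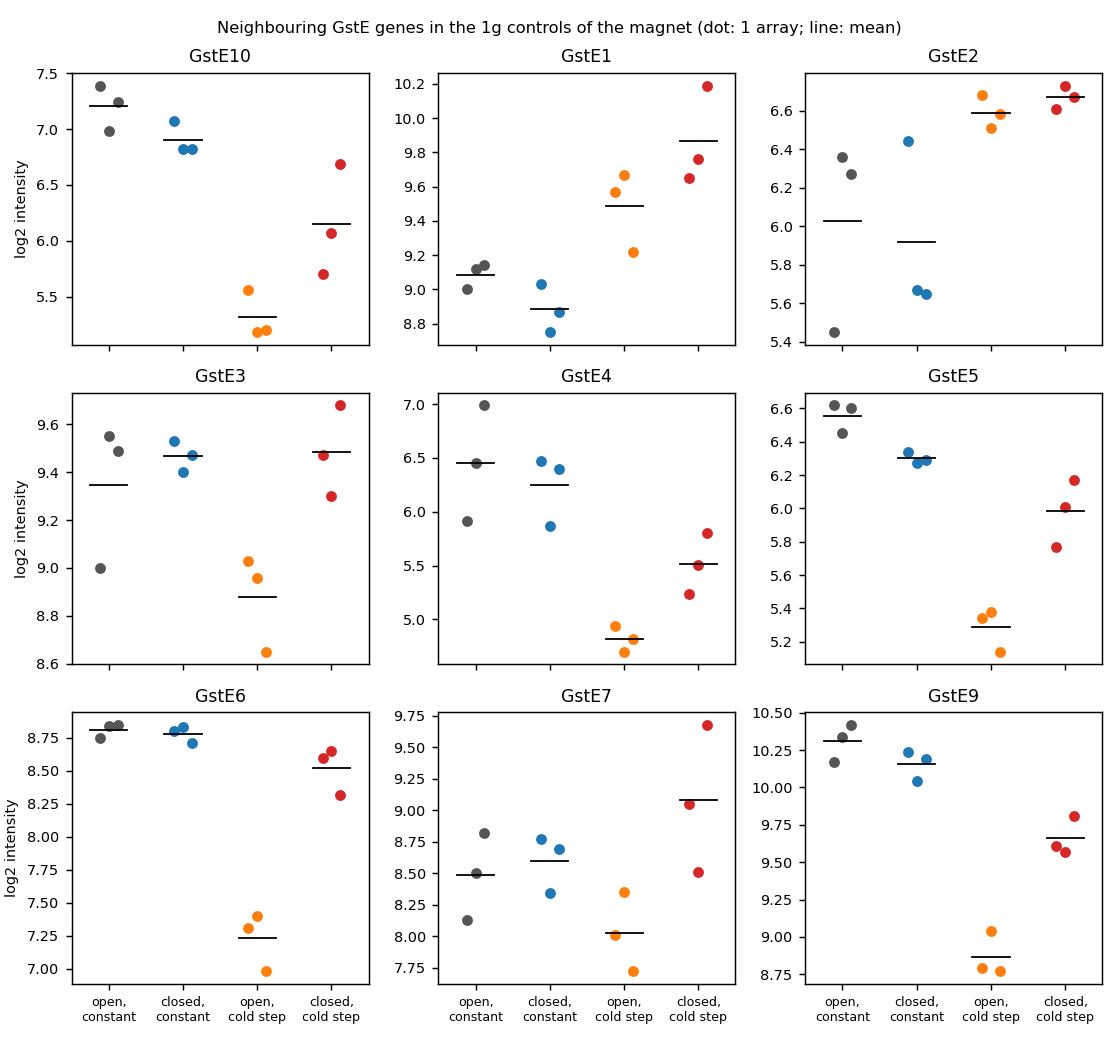
Log2 intensity of the 9 measured genes of the GstE10 to GstE9 run (panels, each with its own axis) in the 1g pupae of the magnet, for open and closed containers at constant temperature and after the cold step; a dot is 1 array and a line the mean. GstE6 is at 8.81 and 8.78 at constant temperature, 7.23 after the cold step in the open container and 8.52 in the closed one, while GstE1 and GstE2 do not have this dip.

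At constant temperature the closed container gave 0 calls in the magnet (2 genes with an unadjusted p under 0.05; 0% of all probe sets), and 7 of the 9 genes of the run were below 0. The difference between the container effects was tested in a contrast chosen after the values were seen. It was called for GstE6 (1.33 ± 0.25, adjusted p = 0.0107, limma), GstE9 (0.95 ± 0.17, adjusted p = 0.00717) and GstE10 (1.14 ± 0.26, adjusted p = 0.0428), 3 of 34 genes beside 0.517% of all probe sets. Fitted on these 4 groups alone 0 genes were called, and without the third closed cold-step array 1 was. For the container after the cold step, 2 genes were called without the third closed or the third open array and 3 in a fit of these 2 groups alone. Beside it 2 of 15 accessory gland genes were higher, and the mean of that list was higher on every closed array than on any open one (4.72 to 5.35 against 4.26 to 4.51). Its part was not tested. Of the other tissue markers 0 of 21 midgut genes and 0 of 9 prepupal Eig71E genes were called. Of the 20 P450 genes Cyp6a17 (0.88 ± 0.19) and Cyp6g1 (0.77 ± 0.19) rose, and of the 22 redox genes none was called.

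In the LDC the container comparison at 1g gave calls at constant temperature only. At 1g 4 genes were higher in the closed container (3.86% of all probe sets): GstE4 by 1.15 ± 0.30, GstE9 by 1.06 ± 0.22, GstE5 by 0.93 ± 0.24 and GstE10 by 0.89 ± 0.22. GstE9 read 11.45, 11.38 and 11.43 closed and 10.87, 9.90 and 10.31 open, without overlap. The closed arrays and the open 10.87 are of the first experiment. With a term for the experiment 0 genes were called, with arrays of the first experiment alone 2, and without 1 array 0 (the second open one) to 5. After the cold step 0 genes were called (5 with an unadjusted p under 0.05; 3.63% of all probe sets), and for the difference of the container effects 0 were (5; 0.533%).

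On the RPM the closed container after the cold step gave 0 calls at 1g (7 with an unadjusted p under 0.05; 0.00533% of all probe sets) and 1 at 0g (1.49%), GstE4 with 6.02, 5.87, 5.77 and 5.72 closed and 6.67, 7.04 and 6.87 open (-1.02 ± 0.24, adjusted p = 0.0405, limma). Leaving out 1 array in turn gave 0 to 3 calls at 0g. In the closed 1g group GstE10 read 6.88, 7.04, 5.97 and 5.88 and GstD5 5.15, 5.18, 6.76 and 6.63, so that 2 arrays of this group stood apart from the other 2 for both genes.

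Under rotation or hypergravity the container gave calls in 3 of 6 LDC comparisons. At 1g-rot after the cold step 1 gene was higher and 4 lower (28.7% of all probe sets), GstE14 with 5.83 and 5.47 closed and 6.62, 8.08 and 8.15 open (-1.97 ± 0.40). Both closed arrays and the open 6.62 are of the first experiment, and with its arrays alone, as with only the groups compared, 0 genes were called. At 12g without cold 7 genes were lower and 1 higher (23.4% of all probe sets), and with only the groups compared 0 were called: GstE1 read 9.76, 9.92 and 10.02 closed and 11.19 and 11.00 open (-1.19 ± 0.25), GstD1 fell by 0.70 (SE 0.15), and the sigma gene GstS1, abundant in flight muscle, rose by 0.68 ± 0.16. At 12g after the cold step 5 genes were higher and 1 lower (12.9% of all probe sets; 4 and 4 with quantile normalization), with 4 delta genes among the 5. GstD5 read 8.42 and 7.94 closed and 5.48, 6.11 and 6.16 open (2.26 ± 0.58). At 12g container and experiment cannot be told apart. At 1g-rot at constant temperature and at 6g in both, 0 genes were called (5, 3 and 0 with an unadjusted p under 0.05; 0.229%, 0% and 0% of all probe sets). The open and closed 6g arrays are all of the second experiment, with 2 arrays per group. Without the first open array 6 were called at 1g-rot at constant temperature, and leaving out 1 array moved the 3 counts above to 1 to 10, 4 to 9 and 1 to 5.

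In open LDC containers the cold step raised GstE14, GstE4 and GstE9. At 1g 5 genes were higher and 3 lower (23.5% of the genes, 16.0% of all probe sets). GstE14 read 6.47, 6.99 and 7.92 after the cold step and 5.02, 4.85 and 4.72 at constant temperature, a difference of 2.26 ± 0.36 (adjusted p = 5.88e-05, limma). GstE4 read 7.87, 7.80 and 8.44 against 7.19, 6.23 and 6.67 (1.34 ± 0.30) and GstE9 11.11, 11.56 and 11.57 against 10.87, 9.90 and 10.31 (1.05 ± 0.22). All cold-step arrays of these 3 genes were above the constant-temperature ones. GstD5 (1.52 ± 0.52) and GstD2 (1.36 ± 0.37) were higher with overlap. GstE13 was lower, 9.65, 10.08 and 9.76 against 10.45, 10.53 and 10.93 (-0.81 ± 0.12, adjusted p = 3.63e-05, limma), as were GstZ1 (-0.72 ± 0.19) and GstE2 (7.56, 7.66 and 7.32 against 8.05, 8.07 and 7.98, -0.52 ± 0.18).

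At 1g-rot the same 3 genes rose, GstE14 by 2.74 ± 0.36, GstE4 by 1.34 ± 0.30 and GstE9 by 1.06 ± 0.22, among 6 higher and 2 lower (20.4% of all probe sets; with arrays of the first experiment alone 0 genes were called). At 6g GstE14 read 8.16 and 7.52 against 4.71 and 4.91 (3.03 ± 0.44, adjusted p = 1.58e-05, limma), GstE4 rose by 2.14 ± 0.37 and GstE9 by 1.45 ± 0.27, and GstZ1 fell by 0.81 (SE 0.23; 22.8% of all probe sets called). At 12g none was called (5 with an unadjusted p under 0.05; 0.597% of all probe sets): GstE14 read 6.57, 5.77 and 5.99 after the cold step and 5.25 and 6.11 without it, with overlap, and GstE9 11.06, 10.71 and 11.02 against 11.07 and 11.37.

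**Figure D5:**
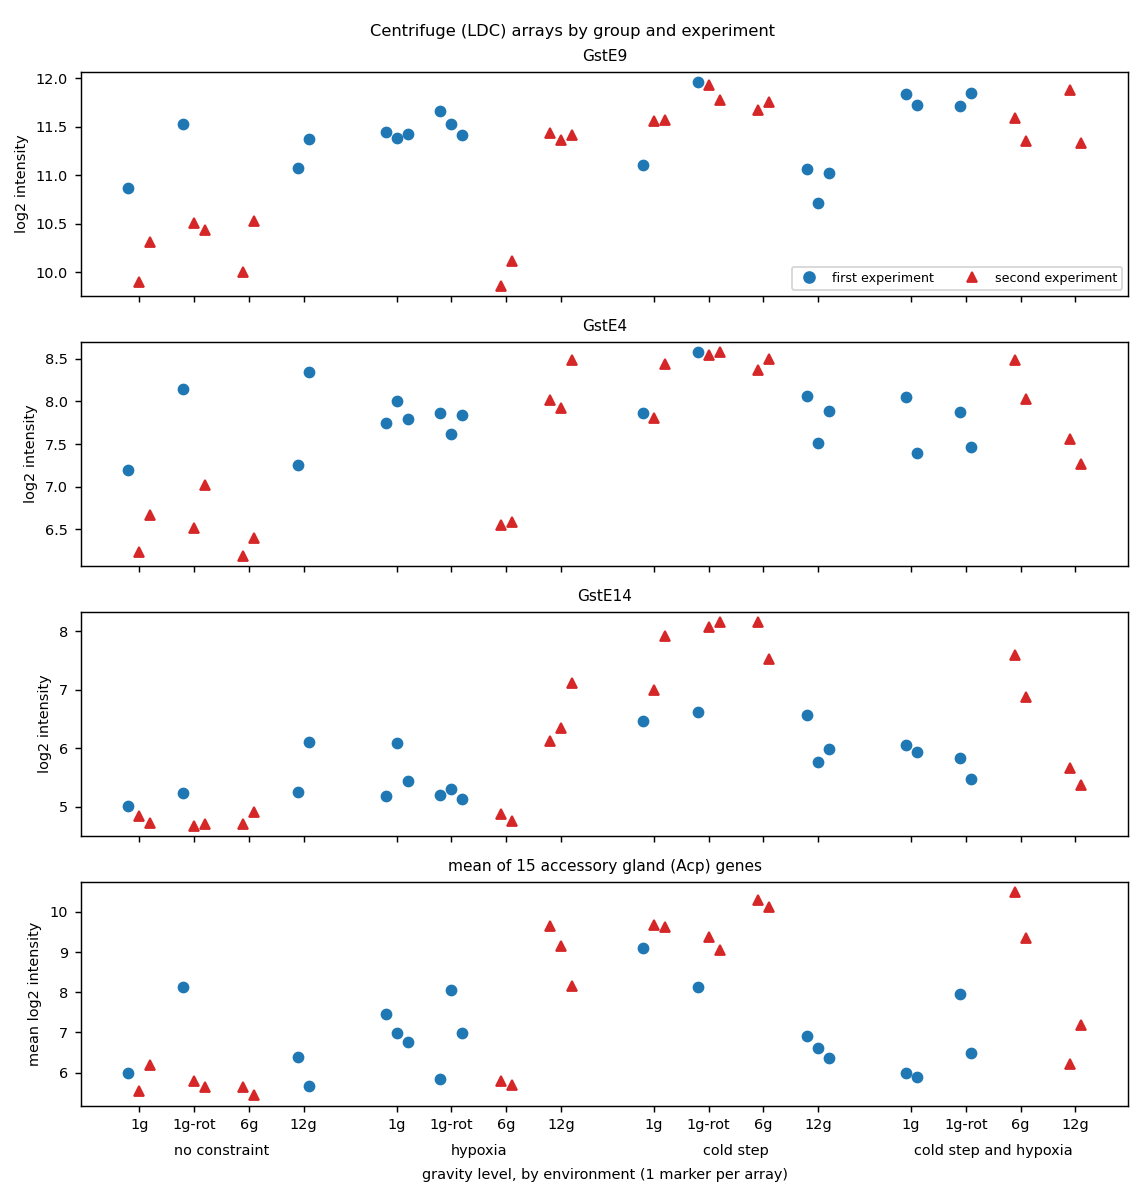
Log2 intensity of GstE9, GstE4 and GstE14 and the mean log2 intensity of 15 accessory gland genes (panels) on each LDC array, by environment and gravity level; circles are arrays of the first experiment and triangles of the second. After the cold step in open containers GstE14 is at 6.47 to 8.16 at 1g, 1g-rot and 6g and at 5.77 to 6.57 at 12g, and the accessory gland mean is at 8.13 to 10.30 and at 6.35 to 6.91.

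The accessory gland genes rose in the same 3 comparisons, 13 of 15 at 1g, 12 at 1g-rot and 13 at 6g with 1 lower in each (at 1g 9.10 to 9.66 per array against 5.55 to 6.20), and so did 2, 3 and 3 of 3 yolk protein genes; their part was not tested. Of the 20 P450 genes 7 rose and 0 fell at 1g (Cyp6a20 2.40 ± 0.41, Cyp9f2 1.50 ± 0.22), and of the 22 redox genes 5 rose and 3 fell (Gclc 1.04 ± 0.17, se -1.84 ± 0.20). Without the third constant-temperature array 5 GST genes were called at 1g, in a fit of the 2 groups alone 1, and with arrays of the first experiment alone 2.

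In closed LDC containers the cold step lowered GstE13 at 1g (9.88 and 9.85 against 10.61, 10.38 and 10.40, -0.60 ± 0.14; 1.41% of all probe sets), the only call there. At 1g-rot GstE13 (-0.64 ± 0.14) and GstE10 (-0.97 ± 0.25) were lower (3.32% of all probe sets). At 12g GstD10 (7.06 and 7.49 against 6.69, 5.87 and 6.06, 1.07 ± 0.27) and GstD1 (13.30 and 13.57 against 12.75, 12.37 and 12.60, 0.86 ± 0.15) were higher (1.57% of all probe sets). Leaving out 1 array in turn gave 0 to 1 calls at 1g and 1g-rot and 0 to 5 at 12g. At 6g 9 genes were called (26.5% of the genes, 16.0% of all probe sets): GstE14 (7.60 and 6.88 against 4.87 and 4.75, 2.43 ± 0.44), GstE4 (1.69 ± 0.37), GstE9 (11.59 and 11.35 against 9.86 and 10.12, 1.48 ± 0.27) and GstE10 (0.87 ± 0.27) rose, and GstE2 (-1.14 ± 0.22), GstZ1 (-1.05 ± 0.23), GstE13 (-0.99 ± 0.15), GstT4 (-0.73 ± 0.23) and GstD8 (-0.69 ± 0.23) fell. There 13 accessory gland genes rose and 1 fell.

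On the RPM the cold step lowered delta genes. At 1g 4 genes fell and 3 rose (20.6% of the genes, 13.6% of all probe sets). GstD10 read 4.79, 4.48 and 4.48 after the cold step and 6.57, 6.73 and 5.33 at constant temperature (-1.63 ± 0.31, adjusted p = 0.00367, limma). GstD1 read 12.22, 12.22 and 12.26 against 12.97, 12.78 and 12.41 (-0.49 ± 0.13), GstD9 fell by 0.78 (SE 0.20), and GstE1 read 9.98, 10.23 and 9.76 against 10.88, 11.09 and 10.11 (-0.70 ± 0.22, overlapping). In GstD10, GstD1 and GstE1 the third constant-temperature array was the lowest of its group; without it 11 genes were called, and without the second 2. GstE4 rose from 5.44, 5.30 and 5.83 to 6.62, 6.88 and 6.47 (1.13 ± 0.25), GstS1 by 0.55 ± 0.10 and GstT2 by 0.52 ± 0.13. At 0g GstD10 (-1.56 ± 0.31), GstD9 (-1.04 ± 0.20) and GstD3 (-1.21 ± 0.27) fell and none rose (1.43% of all probe sets); single arrays moved this count to 0 to 4. At 1g 3 of 9 prepupal Eig71E genes (mean per array 3.53 to 4.40 against 4.80 to 7.83) and 3 of 3 larval storage genes fell in the same arrays, and 3 flight muscle genes rose, their part not tested. Gclc (-0.92 ± 0.18) and the exporters Mdr49 (-1.20 ± 0.30) and Mdr50 (-0.71 ± 0.16) fell as well.

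Counted over all comparisons between 2 groups, GstE9 was called most often (17 times), followed by GstE4 (14), GstE10 (12), GstE14 (11) and GstE13 (10), all of the epsilon class, then GstD1 and GstT4 with 8 each. How often other probe sets were called in these comparisons was not counted, and many of them share arrays. The ranking is therefore not a result about the family or the class. The largest difference of any member was that of GstE14, 3.03 for the cold step at 6g. Its constant-temperature values there (4.71 and 4.91) lay below the array medians. GstE9 has a second, dim probe set (mean 4.10 against 10.52 for the one used) that was called in other comparisons and in none together with it, and had the same sign in 31 of 70. Among its calls were 12g against 1g with cold step and hypoxia (1.04) and the cold step at 12g closed (0.99). The second probe set of GstO2 shared 2 calls with the first, in the same direction, and its sign in 51 of 70.

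Outside delta and epsilon, GstO2 and GstZ1 were called 6 times each, GstT2 4 times, GstO1 3 times, GstS1 and GstT1 2 times and GstT3 and GstZ2 once. The group means of GstS1 were 12.50 to 13.05 in the RPM, 12.66 to 12.88 in the magnet and 13.46 to 14.14 in the LDC. Among epsilon genes, GstE12 was called in no comparison, its largest difference at 0.29, and in the omega class GstO3 was not called either (largest 0.67). Of the delta genes GstD3 and GstD7 were called once and GstD6, GstD8 and GstD9 2 times. GstE11 was called 2 times, lower each time.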

How the data were processed

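The deposited table holds log2 values that the authors made with RMA from 90 Affymetrix arrays; versions of RMA and limma are not stated. The table has 18952 rows, of which 18769 were tested after 183 controls had been dropped. A platform annotation gave 1 gene symbol to 13647 probe sets, several to 402 and none to 4720, and 13544 of the first matched the RefSeq gene table by identifier. A gene was read from the probe set with the highest mean over all arrays.

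Groups were taken from the deposited labels. Each facility had 1 two-sided limma fit that held all its groups (lmFit, then eBayes; limma 3.58.1, R 4.3.3), and p-values were adjusted by Benjamini-Hochberg over all tested probe sets within each of 70 comparisons. The script was tested on simulated data. Figures were drawn with matplotlib 3.10.9 in Python 3.11.15. The p-values measure the spread between pools of pupae. In the open 1g and 1g-rot groups of the LDC that spread also includes differences between the first and the second experiment.

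Of the called GST genes, up to 10 in each direction were named by size; where none was called, up to 3 with the smallest p were given as values, and of other lists up to 4 called genes. Values per array are given for the 12 genes called most often. The gene lists were glutathione and thiol redox (22 measured), Cap n collar regulators (3), detoxification P450 (20), glycosyl transfer (35), export pumps (4), and markers of accessory gland (15), yolk (3), midgut (21), Malpighian tubule (2), larval fat body storage (3), prepupal Eig71E (9), flight muscle (3) and photoreceptors (1). Members and lists were chosen with earlier results of these data known, so they are described by counts and medians with no test of a list.

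The replicate numbers of the titles did not pair the arrays: in the RPM, the magnet and the LDC, 16 of 46, 43 of 135 and 108 of 268 same-numbered pairs correlated above 0.1 in their deviations. Alternatives tried were the threshold of p under 0.001 without adjustment, separate fits for the groups of each comparison, a replicate block, quantile normalization, median centring, dropping the dimmest 25% of probe sets, trended and robust eBayes, averaging a gene over its probe sets, a term for the second LDC experiment, arrays of 1 experiment only, and leaving out each array.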

Additional observations from a re-analysis of the deposited data

Results flagged for a closer look

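Single arrays stood far from the rest of their group in 3 of the 68 gene and group pairs checked, where chance gives about 1 in 20. These were GstO2 on the third RPM array at 0g with cold step and hypoxia (9.52), GstZ1 on the second array of that group (5.23), and GstE11 on the second RPM array at 1g with cold step and hypoxia (7.99).

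Effects that differed between environments by a test of the difference were the following, each with adjusted p from limma. The 12g effect after the cold step minus that without constraint was -1.34 for GstE9 (adjusted p = 0.0248; 0.158 with only the groups compared, 0.317 with arrays of the first experiment alone and 0.055 with its probe sets averaged). In hypoxia minus no constraint it was -0.87 for GstD11 (0.0254), -1.36 for GstE10 (0.0138), -1.07 for GstE3 (0.038), -1.38 for GstE5 (0.0197), -0.61 for GstO2 (0.0383), 0.68 for GstS1 (0.038) and -0.85 for GstT2 (0.0162). That comparison spans both LDC experiments, and with a term for the experiment 1 gene was called. The closed-container effect in the magnet after the cold step minus that at constant temperature was 1.14 for GstE10 (0.0428), 1.33 for GstE6 (0.0107) and 0.95 for GstE9 (0.00717). This contrast was chosen after the values were seen, and with only the groups compared 0 genes were called.

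For 11 genes, every array of open 1g pupae after the cold step lay on one side of all constant-temperature arrays in one facility and on the other side in another. How many of all probe sets did so was not counted, so this number is not a result about GST genes. The cold step in open 1g pupae called 13.6% of all probe sets in the RPM, 21.8% in the magnet and 16.0% in the LDC. The difference between facilities was not tested, and these differences did not pass the threshold within their facility: GstD3 in both facilities, GstS1, GstE2 and GstZ1 in the magnet, GstT4, GstE10 and GstE13 in the RPM, and GstE10 in the LDC. The differences were -0.49 in the RPM and 0.35 in the magnet for GstD1, -0.66 and 0.68 for GstD3, 0.55 and -0.05 for GstS1, and -0.44 and 1.11 for GstT4. For GstE4 they were 1.13 in the RPM, -1.63 in the magnet and 1.34 in the LDC, and for GstE10 0.63, -1.89 and 0.48. Between magnet and LDC they were -1.03 and 2.26 for GstE14, 0.56 and -0.52 for GstE2, -1.44 and 1.05 for GstE9, and 0.30 and -0.72 for GstZ1. For GstE13 they were 0.36 in the RPM and -0.81 in the LDC.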

How the results depend on the processing

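Of 1723 values of the 191 called gene differences under other settings, 1421 stayed past the threshold in the same direction, 300 did not pass and 2 changed sign; of 1098 with 1 array left out, 672 stayed, 426 did not pass and 0 changed sign. The 2 were the 12g effect in hypoxia minus no constraint of GstE3 (0.01) and GstS1 (-0.07) with a term for the LDC experiment. Counts of GST genes called that moved by over 1.5 times follow; the cause was not tested. With an unadjusted p under 0.001 the counts were 1 for RPM 0g without constraint (0 in the fit reported), 4 for the cold step at RPM 1g (7), 1 each for magnet 2g* in hypoxia and 0g*, 1g* and 2g* with both constraints (0 each), 6 for the cold step at magnet 1g closed (11), 1 for LDC 12g after cold (4), 4 for 12g in hypoxia (8) and 0 for 6g with both (2). With only the groups compared they were 1 for magnet 1g* with both constraints (0), 3 for the closed container at magnet 1g after cold (7), 0 for LDC 12g after cold (4), 11 for 6g in hypoxia (6), 1 and 0 for the cold step at LDC 1g open and closed (8 and 1), and 0 for the closed container at LDC 1g (4). Quantile normalization gave 1 for magnet 0g* with both constraints (0), 13 for LDC 12g in hypoxia (8) and 4 for 6g with both (2), and median centring 5 for 12g in hypoxia. A term for the experiment gave 3 for 12g in hypoxia, and 0 for 6g in hypoxia, 6g with both and the closed container at 1g. Arrays of the first experiment alone gave 1 for 12g after cold, 2 each for the cold step at 1g open and closed and for the closed container, and those of the second 3 for 1g-rot after cold (0).

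Leaving out 1 array gave ranges of 0 to 2 for RPM 0g without constraint, 2 to 11 for the cold step at RPM 1g, 9 to 13 and 6 to 10 for the cold step at magnet 1g open and closed, and 2 to 6 for the closed container after cold there. In the LDC they were 0 to 6 for 12g without constraint, 1 to 4 for 12g, 0 to 1 for 6g and 0 to 2 for 1g-rot after cold, 3 to 6 for 12g and 1 to 4 for 6g in hypoxia, 0 to 1 for 6g with both, 5 to 8 and 0 to 1 for the cold step at 1g open and closed, and 0 to 5 and 0 to 3 for the closed container at constant temperature and after cold. The other comparisons against 1g stayed at 0. As the replicate numbers did not pair the arrays, the replicate block is given only here: the count was 10 for the cold step at magnet 1g open (10 without the block), 9 for LDC 12g in hypoxia (8) and 9 for 6g in hypoxia (6), and it moved the counts of 3 other comparisons by over 1.5 times, by 1 or 2 genes each. Arrays were closest to their own number in 3 of 20, 9 of 30 and 19 of 40 cases.

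Among the comparisons between magnet positions, of 12g with 6g, of the container and cold step under altered gravity, and of differences of differences, counts that moved by 6 or more were, with only the groups compared, the cold step at LDC 6g open (13 beside 4), 12g against 6g with both constraints (0 beside 9) and without (0 beside 7), the closed container at 12g at constant temperature (0 beside 8) and the 12g effect in hypoxia minus no constraint (1 beside 7), which gave 13 with quantile normalization and 1 with the experiment term. With that term the closed container at 12g after cold gave 15 (beside 6), the cold step at 12g closed 8 (beside 2) and 12g against 6g without constraint 0, and with arrays of the first experiment alone the cold step at 1g-rot open gave 0 (beside 8). Splits into higher and lower genes moved from 7 and 4 to 6 and 6 with median centring for the cold step at magnet 1g closed, from 2 and 8 to 1 and 11 (1 and 10 with quantile normalization) at magnet 1g open, and with quantile normalization from 2 and 2 to 3 and 1 for LDC 12g after cold, from 0 and 8 to 2 and 11 for 12g and from 2 and 4 to 1 and 4 for 6g in hypoxia, and from 3 and 1 to 3 and 3 for the cold step at 6g open. Intensities below the array median, as for GstE14 in the RPM and magnet, are read near the background of the arrays. In the LDC this holds for GstE14 on all constant-temperature arrays except the third 12g array in hypoxia (7.12). It also holds for the low GstD values at 12g and 6g with both constraints. Other calls rest on such values too. Among them are GstD4 at magnet 1g closed, and the cold-step values of GstE4 at magnet 1g open and GstD10 at RPM 1g. The GstD11 values at LDC 12g in hypoxia are another case, and this list is not complete.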
